A study of Mus musculus with 48 samples.

Results

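The Fos and Jun genes described here are 6 of the 21558 genes in the deposited table, namely Fos, Fosb, Fosl2, Jun, Junb and Jund. They were picked by name as members of the AP-1 family, with earlier results of these data known. All 6 had a mean of at least 0.5 RPKM (reads per kilobase of transcript, scaled to the library's total) and entered every test. Fosl1, the remaining Fos gene, was listed at 0 in 28 of 48 libraries, never exceeded 0.442 RPKM and was not tested.

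AP-1 is a family of dimeric transcription factors whose subunits pair through a leucine zipper and grip DNA with the basic stretch beside it. Fos proteins pair with Jun proteins and not with themselves, whereas Jun proteins can also pair with each other. In neurons most of these genes are immediate early genes: firing, growth factors or stress switch them on within minutes through kinases that act on SRF, ELK and CREB at their promoters. Fos mRNA and protein are therefore widely used to map activated neurons of the hypothalamus. Fosb yields a long-lived splice product that builds up with repeated stimulation, Fosl2 encodes a Fos protein with a slower course, Jun is the substrate after which the JNK kinases are named, and Junb is strongly inducible. Jund is the member with steady expression in most tissues, and it has no introns.

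The measurements are RNA-seq of mouse hypothalamus in 48 libraries, each a pool of tissue from 3 mice, 144 male C57BL/6N mice in all, with RNA extracted in Trizol. There are 8 series of 6 libraries, and the libraries of a series carry the title numbers 1, 5, 9, 13, 17 and 21. The labels give these numbers no unit. Late unloaded and late free-moving mice in noise were labelled 3 months old and kept at 85 dBA and 0.9 atm. Late unloaded and late free-moving mice in quiet were also labelled 3 months old and kept at 10 dBA and normal pressure. Early unloaded mice (series a and b) and early free-moving mice (series a and b) were labelled 2 months old and kept at 10 dBA and normal pressure. Unloading means hind limb unloading, in which a rodent is held with its hind limbs off the floor as a ground model of weightlessness. The labels name a strain and no genotype, series a and b of 1 condition have the same labels, and the text on the series' design gives 2 months as the age of all mice. Noise and low pressure came together, late mice differed from early ones in age and period together, and each late condition is 1 series, so these cannot be told apart. The labels name no sequencing batch and do not say whether pools of 1 condition were processed apart, so each p-value covers only the spread among pools.

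Stretches of 4 promoters are shown, for the members with the largest differences between series (Fos and Fosb), a clear dip at title number 9 (Junb) and, in the values as deposited, the closest following of the mitochondrial share (Jun). Each runs from 110 bases before to 10 bases after the gene's RefSeq start on GRCm38.p6, 5′ to 3′ on the gene's strand. Capitals mark TGACG, the core of the cyclic AMP response element that CREB binds, TATAAA, the TATA box, and in Jun TGACATCA, a variant of the AP-1 site.
Fos, chr12:85473780-85473899, + strand: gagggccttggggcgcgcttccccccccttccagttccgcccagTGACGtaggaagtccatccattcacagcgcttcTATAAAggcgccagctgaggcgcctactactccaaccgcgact
Fosb, chr7:19310036-19310155, - strand: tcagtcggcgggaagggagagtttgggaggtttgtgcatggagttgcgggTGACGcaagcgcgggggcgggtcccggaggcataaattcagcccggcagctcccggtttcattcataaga
Jun, chr4:95052213-95052332, - strand: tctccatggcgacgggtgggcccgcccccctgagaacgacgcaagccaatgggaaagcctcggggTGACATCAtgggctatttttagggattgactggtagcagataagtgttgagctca
Junb, chr8:84978739-84978858, - strand: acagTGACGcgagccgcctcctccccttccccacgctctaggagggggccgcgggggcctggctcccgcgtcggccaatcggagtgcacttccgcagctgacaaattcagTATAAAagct

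In the full RefSeq windows of 300 bases, searched on both strands, TGACG was found in Fos, Fosb and Junb, and in 20.8% of all 32851 windows. Of the 6 member windows, 4 (Fos, Fosb, Jun and Junb) hold the gene start of the GENCODE models given next. The RefSeq start of Jund lies 1210 bases upstream of that start and the one of Fosl2 671 bases downstream of it, so the searches of Jund and Fosl2 do not describe the sequence at those starts. Fos held it at −66 and again at −129, counted back from −1 at the base before the start. TATAAA was found in Fos at −33 and in Junb at the RefSeq start itself, and in 13.6% of all windows. That RefSeq start of Junb lies 30 bases upstream of its GENCODE start, so the match lies upstream of the latter. TGACATCA was found in Jun at −45 and in 3.62% of all windows. The full element TGACGTCA, the AP-1 site TGANTCA and the CArG box that SRF binds were in none of these 4 windows, nor in those of Fosl2 and Jund, and in 1.79%, 7.81% and 1.63% of all windows. Sequence further upstream was not searched, so this does not show that a promoter lacks them. For Fos the window covers bases 85473640 to 85473939 of chromosome 12. The GC box GGGCGG was in 3 of the 4, in Fosl2 and in 35.7% of windows, and CCAAT in 2 of the 4 and 37.4%; each TGACGTCA also holds a TGACG. These matches describe letters in a window and do not show binding.

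By GENCODE M21 on GRCm38, Fos (ENSMUSG00000021250.13) spans bases 85473890 to 85477273 of the plus strand of chromosome 12, and Fosb (ENSMUSG00000003545.3) spans 19302696 to 19310051 of the minus strand of chromosome 7. Fosl2 (ENSMUSG00000029135.10) lies at 32135801 to 32157842 on the plus strand of chromosome 5, and Jun (ENSMUSG00000052684.4) at 95049034 to 95052222 on the minus strand of chromosome 4. Junb (ENSMUSG00000052837.6) lies at 84974484 to 84978718 on the minus strand of chromosome 8, and Jund (ENSMUSG00000071076.6) at 70698949 to 70700616 on its plus strand. Neighbours on the opposite strand overlap 3 members: the antisense gene Gm11175 covers 919 of the 1668 bases of Jund, Junos covers 689 of 3189 bases of Jun, and Prdx2 covers 351 of 4235 bases of Junb. The sources used here do not say whether counting used strand. Reads of Jund and Gm11175, of Jun and Junos, or of Junb and Prdx2 may therefore not be separable in these values. Prdx2 was listed at 97.55 to 204.2 RPKM, against 9.77 to 49.1 RPKM for Junb, while Gm11175 and Junos were not listed.

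Estimated depth was 28.4 to 55.2 M reads per library (median 38.1). From these depths, reads per library ran from about 220 to 2920 for Fos, 56 to 1294 for Fosb and 4146 to 16400 for Jund. These are the lowest and highest of each gene, not the libraries of lowest and highest depth. The share of RPKM from the 13 mitochondrially encoded genes differed between series. It was 12.7% to 16.6% in late unloaded and 8.95% to 13.5% in late free-moving libraries in quiet, 10.5% to 50.04% in late unloaded and 15.1% to 38.8% in late free-moving libraries in noise, and 11.2% to 62.4% over the early libraries. All 10 hypothalamus markers (among them Hcrt, Pmch, Avp, Oxt and Pomc) were above 0 in every library. Their summed level was 2339 to 3760 RPKM in late unloaded and 1548 to 2574 RPKM in late free-moving libraries in quiet, and 3159 to 11360 RPKM over the other 6 series. The part of composition in the results below was not tested beyond the alternatives named there.

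Jund was the most abundant member in every series, followed in median level by Junb or Jun, with Fosb or Fosl2 lowest. Jund made up 42.4% to 88.7% of the summed RPKM of the 6 genes (median of 48 libraries 78.6%), whereas Fosb made up 0.110% to 2.34%. The highest library exceeded the lowest by 22.4 times in Fosb, 12.2 times in Fos, 9.15 times in Fosl2, 5.23 times in Jun, 5.02 times in Junb and 3.95 times in Jund. Fosb, the rarest by median over all libraries, varied most, and Jund, the most abundant, least. In late unloaded mice in quiet the median of Fos (27.4 RPKM) passed that of Jun (22.2 RPKM), and that of Fosb (3.74 RPKM) passed that of Fosl2 (3.26 RPKM). In the 7 other series Fos was below Jun and Fosb was below Fosl2.

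**Figure D1:**
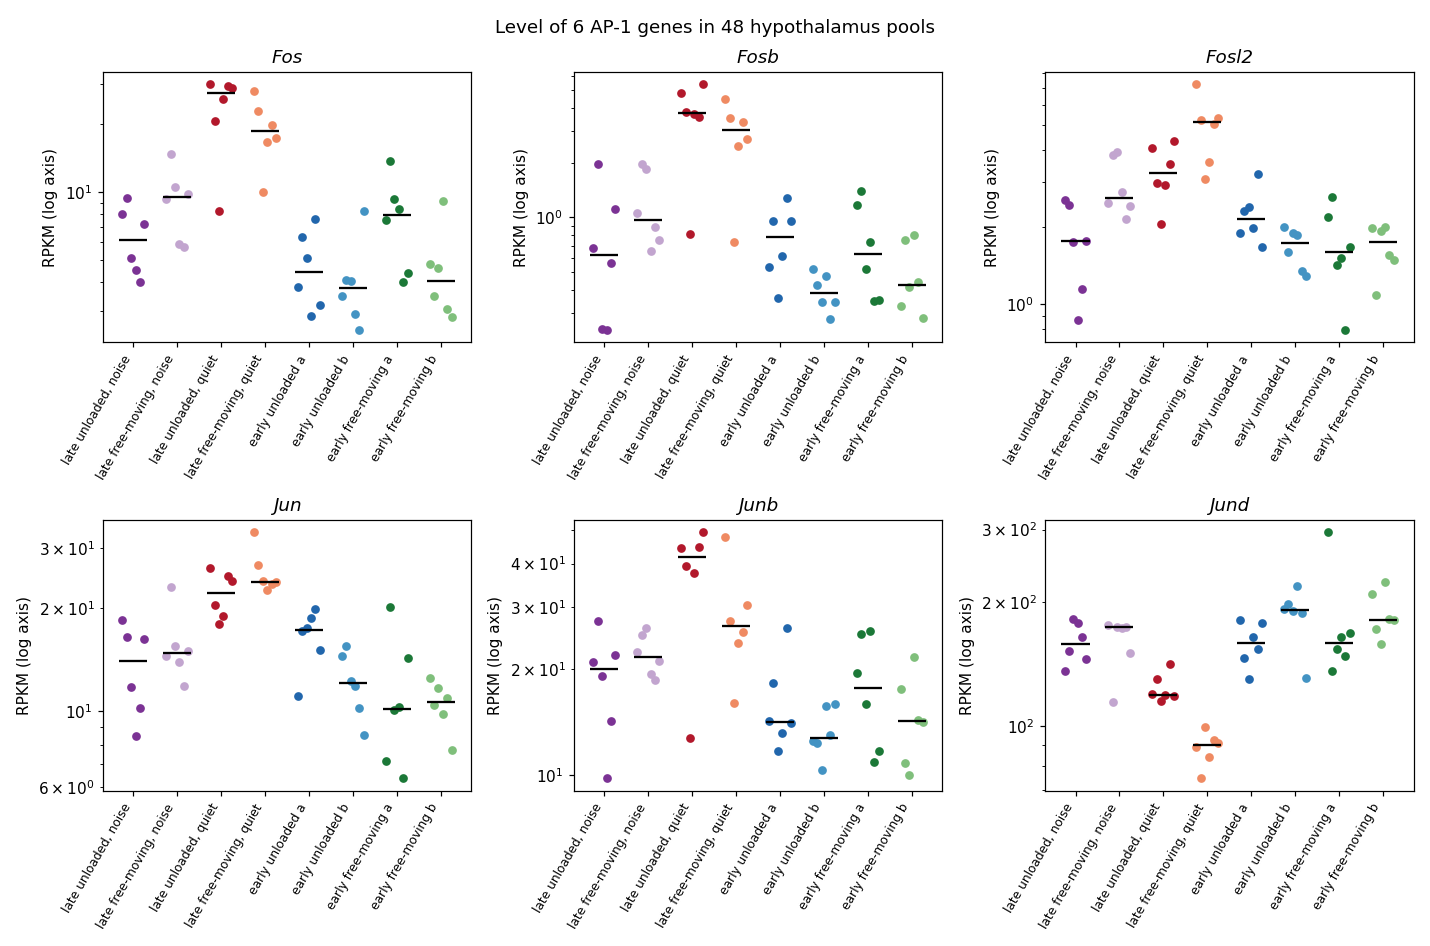
Level of each gene in RPKM (log axis) in the 48 pools, 1 point per pool and 6 pools per series, with a bar at the series median; late series stand left of early ones and noise left of quiet. Fos, Fosb, Fosl2, Jun and Junb have their highest medians in the 2 late quiet series, where Jund has its lowest, 119 RPKM in unloaded and 90.0 RPKM in free-moving mice.

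By median, Fos was highest in late unloaded mice in quiet (27.4 RPKM) and in late free-moving mice in quiet (18.6 RPKM). Next came late free-moving mice in noise (9.58 RPKM), early free-moving series a (7.96 RPKM) and late unloaded mice in noise (6.16 RPKM). Early unloaded series a (4.46 RPKM), early free-moving series b (4.05 RPKM) and early unloaded series b (3.77 RPKM) were lowest. The ranges of all neighbours in this order overlapped. Jund ran the other way, with medians of 192 and 181 RPKM in early unloaded and early free-moving series b at the top and 119 and 90.0 RPKM in late unloaded and late free-moving mice in quiet at the bottom. Its range in late unloaded mice in quiet (115 to 141 RPKM) did not overlap that in late free-moving mice in quiet (74.7 to 99.6 RPKM), while its other neighbours overlapped.

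The comparison of late with early mice in quiet asks how the family stood in the later period. In free-moving mice all 6 members differed: Fos, Fosb, Fosl2, Jun and Junb were higher in late mice and Jund was lower. At the same threshold, an adjusted p under 0.05, 60.5% of all 13685 genes tested were higher and 18.0% lower, and the median log2 difference was 0.43, so 5 higher members are to be read against a majority of genes that were higher too. Fos was 27.9, 22.9, 9.99, 16.7, 19.8 and 17.5 RPKM at title numbers 1, 5, 9, 13, 17 and 21 in late free-moving mice, against 2.81 to 13.8 RPKM (median 4.72) in the 12 early free-moving libraries. Its mean was 3.05 times as high, 19.1 ± 6.08 RPKM (SD, n = 6) in late and 6.28 ± 3.37 RPKM (SD, n = 12) in early pools, and late exceeded early at 6 of 6 numbers. The ranges overlapped because 1 early library, at 13.8 RPKM, exceeded the late library at number 9. In limma's fit the difference of log2(RPKM + 0.5) was 1.62 ± 0.25 (SE, Benjamini-Hochberg adjusted p = 3.2e-07).

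Fosb was 4.45, 3.50, 0.730, 2.46, 3.33 and 2.70 RPKM at the 6 numbers in late free-moving mice, against 0.279 to 1.40 RPKM (median 0.481) in early ones. Apart from number 9, every late library lay above every early one. The log2 difference was 1.51 ± 0.22 (limma, adjusted p = 7.1e-08). Fosl2 was 3.09 to 7.25 RPKM (median 5.17) in late and 0.793 to 2.62 RPKM (median 1.61) in early free-moving mice, and Jun was 22.7 to 33.4 RPKM (median 23.9) in late and 6.37 to 20.2 RPKM (median 10.4) in early ones. For both genes the groups did not overlap, with log2 differences of 1.30 ± 0.16 for Fosl2 (limma, adjusted p = 3.2e-09) and 1.24 ± 0.16 for Jun (limma, adjusted p = 4.1e-09). Overlap was looked at for the members only. How many of all genes had groups apart in this way was not counted, here or in the comparisons below. Junb, at 16.0 to 47.6 RPKM (median 26.5) in late and 10.0 to 25.7 RPKM (median 15.1) in early mice, overlapped between groups and had the smallest difference of the 5, 0.77 ± 0.20 (limma, adjusted p = 0.00083).

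Jund was 88.9, 74.7, 99.6, 84.2, 92.6 and 91.0 RPKM in late free-moving mice, against 136 to 295 RPKM (median 170) in early ones. No late library reached the lowest early one, and the log2 difference was −1.02 ± 0.11 (limma, adjusted p = 8.5e-11). Under quantile normalization the split of all genes was 5560 higher to 5025 lower, against 8283 to 2460 as deposited, and all 6 members kept their direction and call, with Fos at 1.19 and Junb at 0.45. With the mitochondrial share as a covariate Junb was no longer called (0.32, limma adjusted p = 0.40) and the other members were. Of all genes 2175 were then called higher and 4023 lower, with a median log2 difference of −0.089.

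In unloaded mice the late series again differed from the early ones in all 6 members and in the same directions. Of all genes 38.8% were called higher and 8.53% lower, with a median log2 difference of 0.21. Fos was 30.1, 20.7, 8.23, 26.0, 29.6 and 28.9 RPKM in late unloaded mice, against 2.46 to 8.23 RPKM (median 3.94) in the 12 early unloaded libraries. The late library at number 9 sat at the top of the early range and the other 5 far above it. The mean was 5.31 times as high, 23.9 ± 8.43 RPKM (SD, n = 6) in late and 4.50 ± 1.92 RPKM (SD, n = 12) in early pools, and the log2 difference was 2.26 ± 0.25 (limma, adjusted p = 1.8e-07). Fosb, at 0.813 to 5.40 RPKM (median 3.74) in late and 0.278 to 1.28 RPKM (median 0.497) in early unloaded mice, had a log2 difference of 1.85 ± 0.22 (limma, adjusted p = 4.4e-07). Junb was 44.3, 39.4, 12.7, 37.7, 44.8 and 49.1 RPKM in late and 10.3 to 26.2 RPKM (median 13.6) in early unloaded mice, with a log2 difference of 1.26 ± 0.20 (limma, adjusted p = 0.00011). For these 3 genes it was number 9 that made the groups overlap.

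Fosl2 and Jun had smaller differences between late and early unloaded mice than these 3 genes. Fosl2 was 2.05 to 4.34 RPKM (median 3.26) in late and 1.29 to 3.23 RPKM (median 1.89) in early pools, higher in late ones at 5 of 6 numbers. Jun was 18.1 to 26.3 RPKM (median 22.2) in late and 8.52 to 19.97 RPKM (median 14.9) in early pools, higher at 6 of 6. Both log2 differences were 0.63 ± 0.16 (limma, adjusted p = 0.0028 for Fosl2 and 0.0022 for Jun). Jund was 115 to 141 RPKM (median 119) in late and 130 to 219 RPKM (median 179) in early unloaded mice, lower at 6 of 6 numbers with overlapping ranges, and its log2 difference was −0.46 ± 0.11 (limma, adjusted p = 0.0014). Under quantile normalization the split of all genes was 3349 to 3035, against 5311 to 1168 as deposited, and the 6 members kept their calls. With the mitochondrial share as a covariate Fosl2 (0.37, limma adjusted p = 0.085) and Jun (0.29, adjusted p = 0.093) were no longer called. Of all genes 844 were then called higher and 1502 lower.

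**Figure D2:**
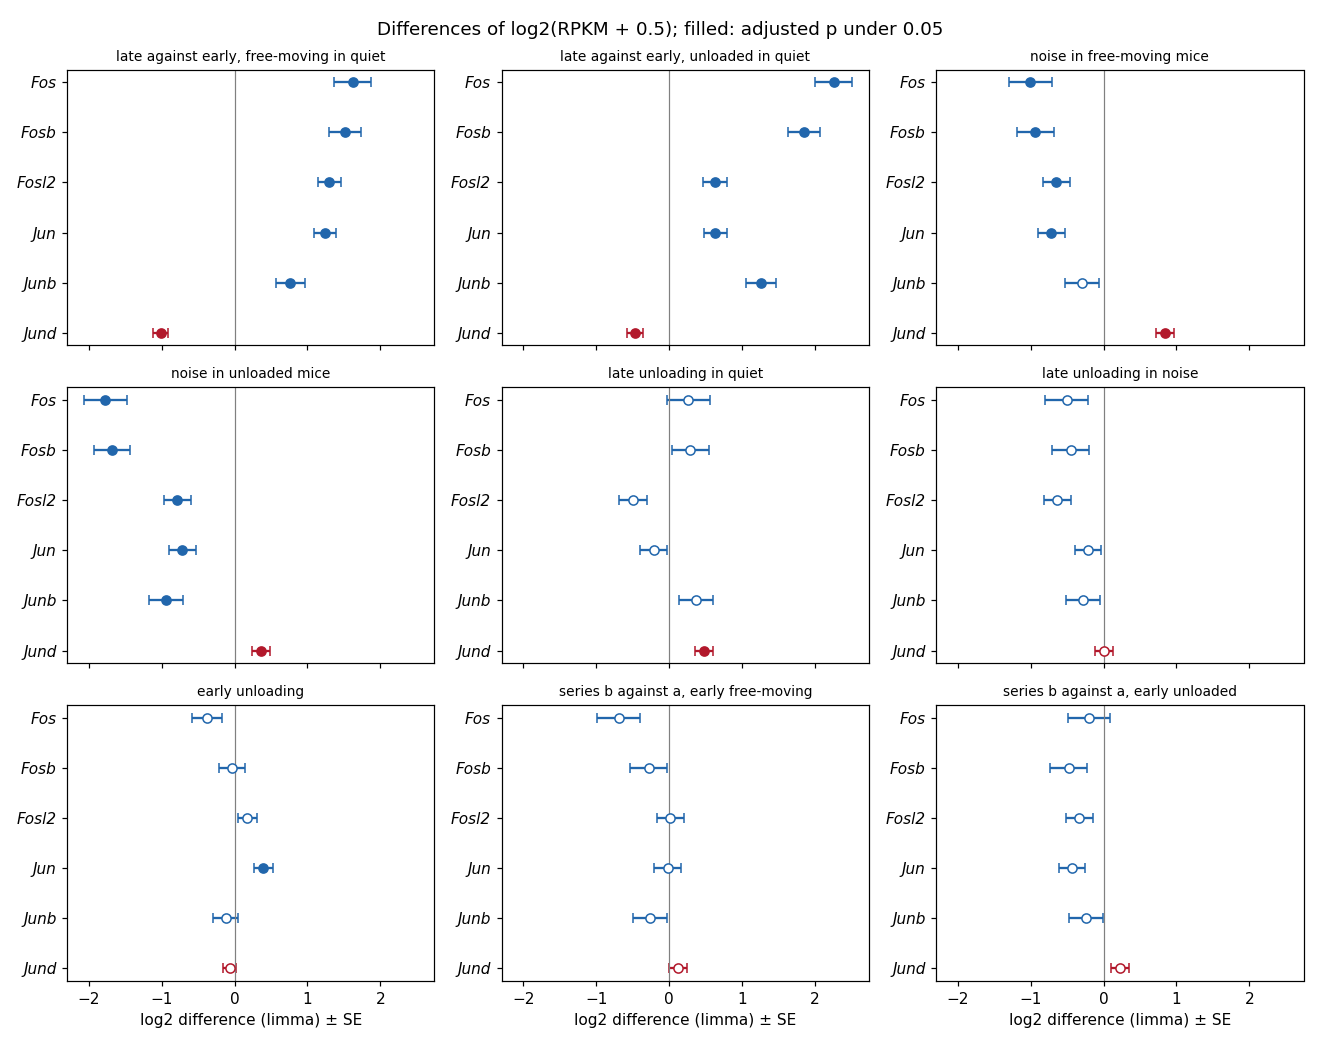
Difference of log2(RPKM + 0.5) for each gene in 9 comparisons, with its standard error from limma; filled points have an adjusted p under 0.05 and Jund is drawn in red. Jund lies on the other side of 0 from the other 5 genes in the late against early panels and in the noise panels.

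Whether the late-to-early difference itself depended on unloading was tested as an interaction, which is positive where the late-minus-early difference is larger in unloaded mice. It was called for 3 of the 6 members, and over all genes for 7.98% as positive and 25.6% as negative, with a median of −0.22. Fosl2 (−0.67 ± 0.23, limma adjusted p = 0.024) and Jun (−0.61 ± 0.22, adjusted p = 0.032) had a smaller late rise in unloaded mice, and Jund (0.55 ± 0.15, adjusted p = 0.0078) a smaller late fall. Fos (0.64 ± 0.36, adjusted p = 0.15), Fosb (0.33 ± 0.31, adjusted p = 0.40) and Junb (0.49 ± 0.29, adjusted p = 0.17) did not pass. Fosl2 missed the threshold under quantile normalization (−0.44, limma adjusted p = 0.066) and without number 5, 9 or 17. Jun missed it without number 9, 13 or 17 and with no filter on low genes. With the mitochondrial share as a covariate Jund alone was called. Of all genes 1374 were then called as positive and 397 as negative.

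The noise comparison asks how the family stood under noise with low pressure. Among late free-moving mice, Fos, Fosb, Fosl2 and Jun were lower in noise than in quiet and Jund was higher. Of all genes 36.4% were called lower and 21.2% higher in noise, with a median log2 difference of −0.15. The quiet late libraries used here are those of the comparisons above, so the 2 sets of differences share samples and are not independent. Fos was 9.30, 14.8, 10.5, 5.88, 5.74 and 9.85 RPKM in noise, against 27.9, 22.9, 9.99, 16.7, 19.8 and 17.5 RPKM in quiet, at numbers 1, 5, 9, 13, 17 and 21. Noise was lower at every number but 9, and the ranges overlapped. The mean in noise was 9.34 ± 3.35 RPKM, or 0.488 times the 19.1 ± 6.08 RPKM in quiet (SD, n = 6 each), and the log2 difference was −1.002 ± 0.29 (limma, adjusted p = 0.0036).

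Fosb was 0.652 to 1.98 RPKM (median 0.972) in noise and 0.730 to 4.45 RPKM (median 3.01) in quiet, and Fosl2 was 2.16 to 3.95 RPKM (median 2.61) in noise and 3.09 to 7.25 RPKM (median 5.17) in quiet. Both were lower in noise at every number but 9, with log2 differences of −0.93 ± 0.25 for Fosb (limma, adjusted p = 0.0019) and −0.65 ± 0.19 for Fosl2 (limma, adjusted p = 0.0033). Jun was 11.9 to 23.1 RPKM (median 14.8) in noise and 22.7 to 33.4 RPKM (median 23.9) in quiet, and only the noise library at number 5 reached into the quiet range. Its log2 difference was −0.72 ± 0.18 (limma, adjusted p = 0.00097). Junb, at 18.7 to 26.2 RPKM (median 21.7) in noise and 16.0 to 47.6 RPKM (median 26.5) in quiet, did not pass (−0.29 ± 0.24, limma adjusted p = 0.29).

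Jund was 176, 114.5, 174.5, 173, 174 and 151 RPKM in noise, against 88.9, 74.7, 99.6, 84.2, 92.6 and 91.0 RPKM in quiet. The groups did not overlap, which was not counted over all genes. The mean was 1.81 times as high in noise, and the log2 difference was 0.85 ± 0.12 (limma, adjusted p = 5.3e-07). Under quantile normalization the split of all genes was 4663 lower to 4252 higher, against 4983 to 2897 as deposited, and the 5 members called kept their calls. With the mitochondrial share as a covariate Jund was the 1 member called. Of all genes 5180 were then called higher and 1538 lower, with a median log2 difference of 0.17. Fos was then at −0.78 (limma, adjusted p = 0.054), Fosb at −0.63 (adjusted p = 0.065), Fosl2 at −0.28 (adjusted p = 0.23) and Jun at −0.22 (adjusted p = 0.23).

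Among late unloaded mice all 6 members differed between noise and quiet, 5 lower in noise and Jund higher. Of all genes 45.6% were called lower and 6.75% higher, with a median log2 difference of −0.28. Fos was 7.99, 9.48, 5.10, 4.53, 4.02 and 7.22 RPKM in noise, against 30.1, 20.7, 8.23, 26.0, 29.6 and 28.9 RPKM in quiet. Noise was lower at 6 of 6 numbers, and only the quiet library at number 9 fell among the noise libraries. The mean in noise was 0.267 times that in quiet, 6.39 ± 2.17 RPKM against 23.9 ± 8.43 RPKM (SD, n = 6 each), and the log2 difference was −1.77 ± 0.29 (limma, adjusted p = 0.0006). Fosb, at 0.240 to 1.97 RPKM (median 0.620) in noise and 0.813 to 5.40 RPKM (median 3.74) in quiet, had a log2 difference of −1.68 ± 0.25 (limma, adjusted p = 0.0002). Junb, at 9.77 to 27.4 RPKM (median 20.04) in noise and 12.7 to 49.1 RPKM (median 41.8) in quiet, was lower in noise at every number but 9 (−0.94 ± 0.24, limma adjusted p = 0.0035).

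Fosl2 was 0.867 to 2.55 RPKM (median 1.77) in noise and 2.05 to 4.34 RPKM (median 3.26) in quiet, and Jun was 8.47 to 18.5 RPKM (median 14.1) in noise and 18.1 to 26.3 RPKM (median 22.2) in quiet. Both were lower in noise at 6 of 6 numbers with overlapping ranges, at −0.79 ± 0.19 for Fosl2 (limma, adjusted p = 0.003) and −0.72 ± 0.18 for Jun (limma, adjusted p = 0.0036). Jund was 136 to 183 RPKM (median 159) in noise and 115 to 141 RPKM (median 119) in quiet, higher in noise at 6 of 6 numbers (0.36 ± 0.12, limma adjusted p = 0.016), and was not called without number 9 or 13. Under quantile normalization 3175 of all genes were lower and 2713 higher, against 6238 and 924 as deposited. The members kept their calls there. With the mitochondrial share as a covariate 0 of the 13685 genes were called, members included (2286 had an unadjusted p under 0.05), and Fos stood at −1.57 (limma, adjusted p = 0.069).

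Whether the noise difference was alike in unloaded and free-moving mice was tested as an interaction, negative where the noise-minus-quiet difference is lower in unloaded mice. None of the 6 members passed in limma, 2 had an unadjusted p under 0.05, and 4.38% of all genes were called. The estimates were −0.77 ± 0.41 for Fos (adjusted p = 0.31), −0.75 ± 0.36 for Fosb (adjusted p = 0.24), −0.65 ± 0.33 for Junb (adjusted p = 0.28) and −0.48 ± 0.17 for Jund (adjusted p = 0.096). The larger noise differences of Fos and Fosb in unloaded mice are thus not shown to differ from those in free-moving mice.

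Unloading itself was compared with free movement 3 times. In late mice in quiet it went with a higher Jund, at 119, 130, 115, 119, 141 and 119 RPKM in unloaded mice, against 88.9, 74.7, 99.6, 84.2, 92.6 and 91.0 RPKM in free-moving mice. The groups did not overlap, which was not counted over all genes. The log2 difference was 0.49 ± 0.12 (limma, adjusted p = 0.0078). Without number 5 the limma adjusted p was 0.053. No other member passed, against 9.38% of genes called higher and 3.38% lower. Fos (0.27 ± 0.29, adjusted p = 0.59), Fosb (0.29 ± 0.25, adjusted p = 0.47), Junb (0.37 ± 0.24, adjusted p = 0.31) and Jun (−0.21 ± 0.18, adjusted p = 0.46) lay within 2 standard errors of 0. Fosb was nevertheless higher in unloaded mice at 6 of 6 numbers, at a mean of 3.67 RPKM against 2.86 RPKM. Fosl2 was lower in unloaded mice at 6 of 6 numbers, at 3.32 ± 0.843 RPKM against 4.94 ± 1.48 RPKM (SD, n = 6 each), and missed the threshold in limma (−0.50 ± 0.19, adjusted p = 0.071). Fosl2 passed it under quantile normalization (−0.47, adjusted p = 0.024). In a fit of these 2 series alone 5 members passed: Fosb, Junb and Jund higher, Fosl2 and Jun lower. Of the 13685 genes tested, that fit called 3695 higher and 3411 lower.

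In late mice in noise none of the 6 members passed in limma, 1 had an unadjusted p under 0.05, and 0.0146% of all genes were called. Fos was lower in unloaded mice at 6 of 6 numbers, at 6.39 ± 2.17 RPKM against 9.34 ± 3.35 RPKM in free-moving mice (SD, n = 6 each), a log2 difference of −0.50 ± 0.29 (adjusted p = 0.77). Fosl2 had the smallest unadjusted p, with 0.867 to 2.55 RPKM in unloaded and 2.16 to 3.95 RPKM in free-moving mice (−0.63 ± 0.19, limma adjusted p = 0.58). Fosb (−0.45), Junb (−0.28) and Jun (−0.21) lay below 0 as well, and Jund had nearly equal means of 159.8 and 160.5 RPKM.

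In early mice Jun was the 1 member called, while of all genes 50.9% were called higher and 1.88% lower, with a median log2 difference of 0.23. That background was not stable: 1521 genes were higher and 1263 lower under quantile normalization, against 6970 and 257 as deposited, and the number higher was 20 without number 9, 0 without number 17 and 1 with the mitochondrial covariate. Jun was 8.52 to 19.97 RPKM (median 14.9) in the 12 unloaded libraries and 6.37 to 20.2 RPKM (median 10.4) in the 12 free-moving ones, higher in unloaded mice at 6 of 6 numbers (means of series a and b) with nearly the same range (0.40 ± 0.13, limma adjusted p = 0.012). The call of Jun was lost under quantile normalization (0.16, limma adjusted p = 0.20), with the mitochondrial share as a covariate (0.045, adjusted p = 0.98) and without number 9, 13 or 17. Fos, at 2.46 to 8.23 RPKM (median 3.94) in unloaded and 2.81 to 13.8 RPKM (median 4.72) in free-moving mice, did not pass (−0.37 ± 0.21, limma adjusted p = 0.12), but did under quantile normalization (−0.61, adjusted p = 0.038). Junb stood at −0.12 ± 0.17 (adjusted p = 0.53).

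The 2 early series of 1 label give a measure of how far such series differ. Between series b and a no member passed in limma, in free-moving mice (1 with an unadjusted p under 0.05, 0.256% of all genes called) or in unloaded mice (1 with an unadjusted p under 0.05, 0.833% of all genes called). The largest estimate was that of Fos in free-moving mice, at 4.66 ± 2.37 RPKM in series b against 7.90 ± 3.61 RPKM in series a (SD, n = 6 each; −0.69 ± 0.29, adjusted p = 0.24). In unloaded mice Fosb was lower in series b at 6 of 6 numbers, at a mean of 0.397 RPKM against 0.783 RPKM (−0.48 ± 0.25, limma adjusted p = 0.19), and Jun stood at 12.2 RPKM against 16.6 RPKM (−0.44 ± 0.18, adjusted p = 0.12). For each member the estimate between series of 1 label was smaller in size than either of its late against early differences. This did not hold for unloading. The estimate of Jun between unloaded series (−0.44) was larger in size than its early unloading difference (0.40). That of Fos between free-moving series (−0.69) was larger than its unloading differences (−0.37 early, 0.27 late in quiet and −0.50 late in noise).

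**Figure D3:**
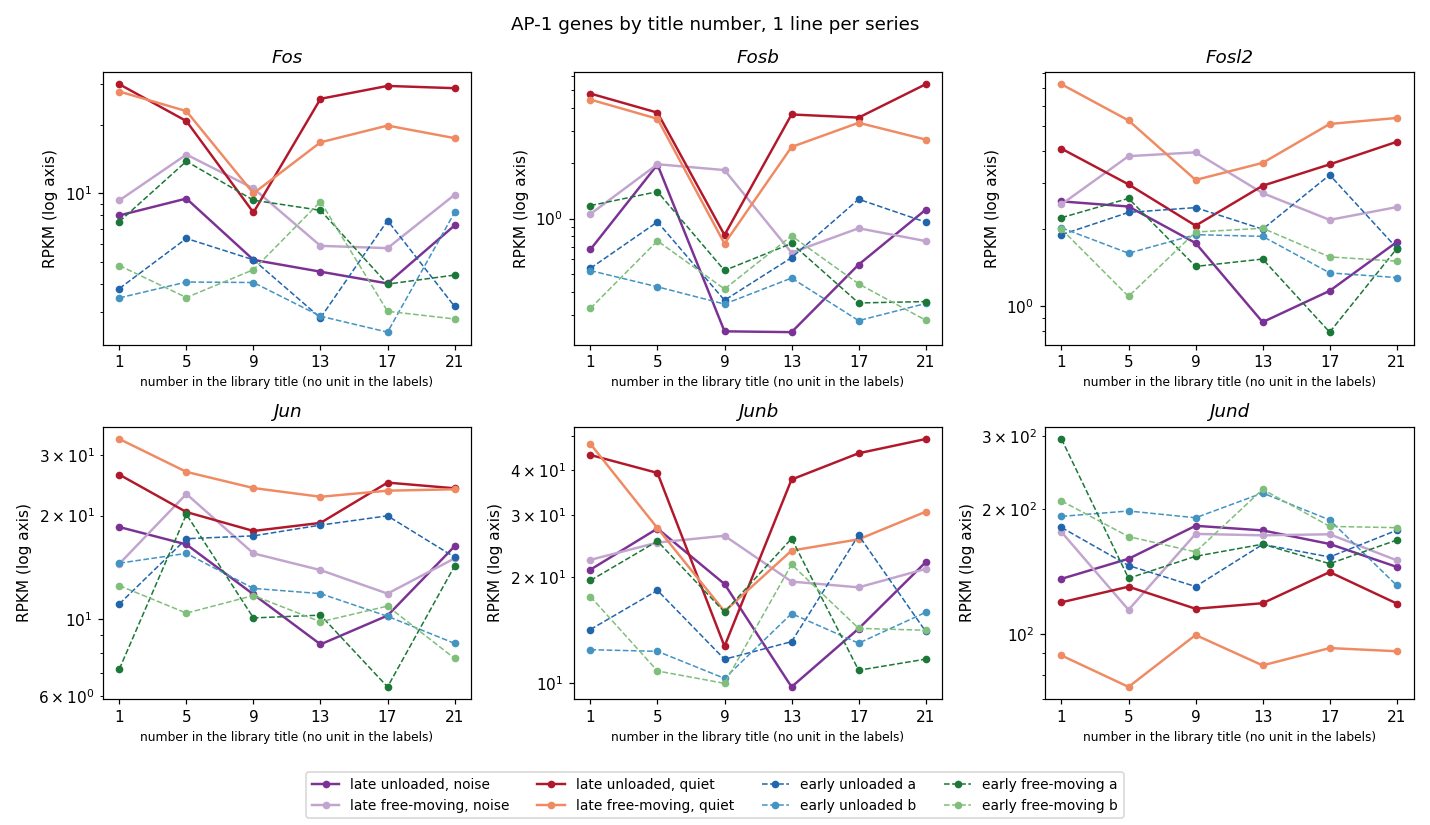
RPKM (log axis) of each gene against the number in the library title, 1 line per series of 6 libraries; solid lines are late and dashed lines early series. In both late quiet series Fos, Fosb, Fosl2 and Junb are lowest at number 9, while none of these 4 genes is lowest at number 9 in a noise series; among early series Junb is lowest there in 3 and Fosb in 1.

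Across title numbers, a dip at number 9 stood out in the late quiet series. Fos, Fosb, Fosl2 and Junb each had their lowest library at number 9 in late unloaded and in late free-moving mice in quiet. In late unloaded mice Fos was then 8.23 RPKM, against 20.7 to 30.1 RPKM at the other numbers, and Junb was 12.7 RPKM, against 37.7 to 49.1 RPKM. In late free-moving mice in quiet Fosb was 0.730 RPKM at number 9, against 2.46 to 4.45 RPKM at the others. In late free-moving mice in noise, by contrast, Fosl2 (3.95 RPKM) and Junb (26.2 RPKM) were highest at number 9. The low value was not confined to the late quiet series. Junb was lowest at number 9 in 5 of 8 series, 3 of them early (unloaded a and b and free-moving b), and below the mean of the other numbers in 6 of 8. Fosb was lowest there in 3 of 8, early unloaded series a included, and below that mean in 7 of 8, against 3 of 8 for Fos and for Fosl2. Each title number is 1 pool per series, and the dip was not tested as such.

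A shared effect of the title number over all 8 series was not called for any member in limma (adjusted p = 0.17 for Fosb and 0.26 to 0.40 for the others, 1 with an unadjusted p under 0.05, 0.877% of all genes called). If the number is read as a clock time, which the labels do not state, a wave with a period of 24 hours was not called either. For 2 members, Jun and Fosl2, the unadjusted p was under 0.05 (limma, adjusted p = 0.31 and 0.36), and 1.76% of all genes were called. A difference of that wave between series was called for 0 members and 0% of all genes (2 members with an unadjusted p under 0.05, limma).

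Set against each other within a library, the members shifted in ratio. Fos stood at 7.15% to 25.2% of the level of Jund (median 21.4%) in late unloaded and 10.0% to 31.4% (median 20.6%) in late free-moving mice in quiet. In noise it was 2.44% to 6.24% (median 3.88%) in late unloaded and 3.30% to 12.9% (median 5.65%) in late free-moving mice, and early medians were 1.93% to 3.90%. This ratio does not depend on the total of a library. The level of Fosb relative to Fos moved far less, with series medians from 8.69% to 16.0%. Fosl2 relative to Fos had medians of 13.9% in late unloaded and 25.8% in late free-moving mice in quiet, and 27.1% in late unloaded and 32.1% in late free-moving mice in noise. Its early medians were 48.4% and 50.7% in unloaded series a and b, and 19.4% and 41.7% in free-moving series a and b.

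Over the 48 libraries, Fos and Fosb (r = 0.90), Fosb and Junb (r = 0.89) and Fos and Junb (r = 0.88) had the highest of the 15 pairwise correlations of log2(RPKM + 0.5), while Jund was negative with all 5 (r = −0.74 with Jun, −0.70 with Fos). With series means removed and values quantile-normalized, Fos with Junb (r = 0.78), Fosb with Junb (r = 0.76) and Fos with Fosb (r = 0.69) stayed high. Jund then had r = −0.57 with Jun and −0.21 to −0.01 with the other members. The points of these correlations share series, depth and composition, and they are given as descriptions. Against the log2 odds of the mitochondrial share, r was −0.90 for Jun, −0.75 for Fosl2, −0.69 for Fosb, −0.60 for Fos, −0.57 for Junb and 0.63 for Jund (48 libraries). With values quantile-normalized it was −0.77 for Jun, −0.49 for Fosl2, −0.59 for Fosb, −0.42 for Fos, −0.31 for Junb and 0.83 for Jund. Jund, not Jun, then followed the share most closely.

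**Figure D4:**
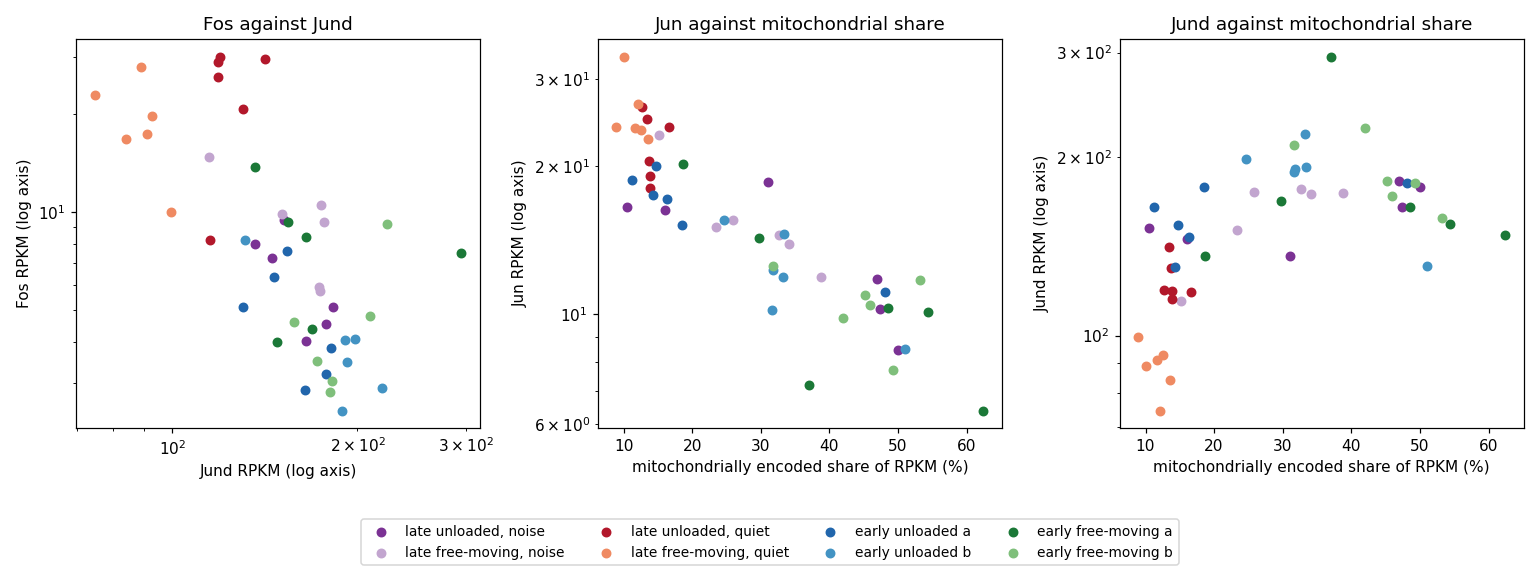
Left, Fos against Jund in RPKM (log axes); middle and right, Jun and Jund in RPKM (log axis) against the share of RPKM from mitochondrially encoded genes in percent; 1 point per library, 48 in all, coloured by series. The late quiet libraries sit at high Fos and low Jund, and at shares of 8.95% to 16.6%.

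The genes most like each member, by Pearson r of quantile-normalized log2 values with series means removed, fell into 3 sets. Fos was nearest to Junb (0.78), Dusp1 (0.73), a phosphatase that switches off MAP kinases, and Egr1 (0.70), a zinc finger immediate early gene. Fosb was nearest to Egr1 (0.79), Fosl2 to Egr1 (0.70), and Junb to Egr1 (0.88) and Egr4 (0.81). Jun was nearest to Dnajb1 (0.75), a heat-inducible co-chaperone, Gse1 (0.75) and Elavl1 (0.74), an RNA-binding protein. Jund was nearest to Snf8 (0.91), Zfyve19 (0.91) and Lamtor4 (0.90). None of the 3 genes nearest to Jun or Jund was an immediate early gene of the list used here.

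Most other immediate early genes differed in the direction of Fos. Of 18 listed, 17 were tested. In late against early free-moving mice 15 were higher and 1 lower (median log2 difference 1.17, against 0.43 for all genes, of which 60.5% were higher and 18.0% lower), with Nr4a3 at 1.59, Nr4a2 at 1.59 and Homer1, a synaptic scaffold, at 1.06 (limma, each with an adjusted p under 0.05). In late against early unloaded mice 16 were higher and 0 lower (median 0.74, against 0.21 for all genes, of which 38.8% were higher), led by Arc (1.43), a regulator of synaptic receptors, Btg2 (1.54) and Egr1 (1.85). In noise 1 was higher and 11 lower in free-moving mice (median −0.51, against −0.15 for all genes, of which 36.4% were lower), and 0 higher and 14 lower in unloaded mice (median −0.93, against −0.28 for all genes, of which 45.6% were lower), with Egr1 at −1.53 and Btg2 at −1.33 in the unloaded. Under quantile normalization the 4 counts were 12 higher and 2 lower, 10 and 0, 1 and 8, and 0 and 11. Those of all genes were 5560 and 5025, 3349 and 3035, 4252 and 4663, and 2713 and 3175. With the mitochondrial covariate the counts of the list were 6 and 1, 12 and 0, 2 and 3, and 0 and 0. Those of all genes were then 2175 and 4023, 844 and 1502, 5180 and 1538, and 0 and 0. No call in unloaded mice in noise was thus left, in the list or over all genes. In free-moving mice in noise 7 were lower without number 1 or 9, and 6 without number 13 or 17. Of all genes 4640 were lower there without number 1, 4437 without 9, 4118 without 13 and 4094 without 17, against 4983 as deposited. In unloaded mice in noise 9 were lower without number 13, with 966 of all genes lower, against 6238 as deposited. In early unloading 3 of the 17 were higher (Nptx2, Bdnf and Per1) and 0 lower, while 50.9% of all genes were higher and 1.88% lower. The median of the list was 0.13, against 0.23 for all genes. None of the list was called there under quantile normalization, with the covariate or without number 9 or 17. Of all genes 1521, 1, 20 and 0 were then higher, in the same order. In late unloading in noise none passed, with 0.0146% of all genes called.

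The exception was Npas4, a neuron-specific transcription factor gene that responds to calcium entry. In free-moving mice it was lower in late than in early pools (−0.87 ± 0.15, limma adjusted p = 1.5e-06) and higher in noise than in quiet (1.04 ± 0.17, adjusted p = 3.2e-06), the directions of Jund. In unloaded mice it was higher in late than in early pools (0.57 ± 0.15, limma adjusted p = 0.0028). Late unloading in quiet went with a higher Npas4 (1.32 ± 0.17, limma adjusted p = 1.2e-06), and the interaction of unloading and noise was −1.43 ± 0.24 (adjusted p = 0.00033). In that comparison of late unloading Ier2 was also higher (0.57, adjusted p = 0.030) and Nr4a3 lower (−0.74, adjusted p = 0.0065).

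**Figure D5:**
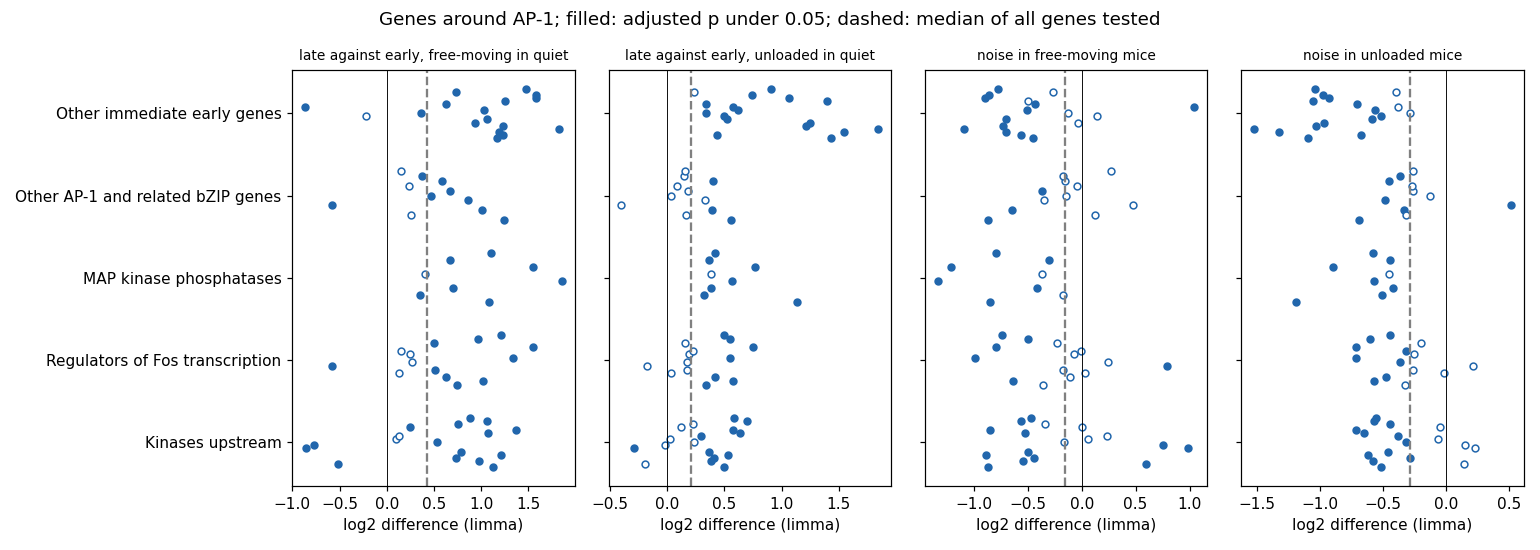
Difference of log2(RPKM + 0.5) for each tested gene of 5 lists around AP-1, in 4 comparisons; filled points have a limma adjusted p under 0.05 and the dashed line is the median of all 13685 genes. Most immediate early genes and MAP kinase phosphatases lie right of the dashed line in late against early mice and left of it in noise.

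The MAP kinase phosphatases, which act after the kinases that induce Fos, followed the same direction. Of 8 tested, 7 were higher and 0 lower in late mice, both in free-moving mice (median 0.89, with 60.5% of all genes higher) and in unloaded mice (median 0.40, with 38.8% of all genes higher). In noise 0 were higher and 6 lower in free-moving mice (median −0.61, with 36.4% of all genes lower), and 0 higher and 7 lower in unloaded mice (median −0.54, with 45.6% of all genes lower). These 4 counts were 6, 4, 4 and 4 in the same directions under quantile normalization, and 2, 2, 3 and 0 with the mitochondrial covariate. Of all genes 5560, 3349, 4663 and 3175 were called in those directions under quantile normalization, and 2175, 844, 1538 and 0 with the covariate. Without number 21, 4 were higher in late unloaded mice, with 3901 of all genes higher. Without number 13, 2 were lower in unloaded mice in noise, with 966 of all genes lower. As deposited, Dusp4 (1.86) and Dusp6 (1.55) led in late free-moving mice, and Dusp1 (1.13) in late unloaded mice (limma, each with an adjusted p under 0.05). In noise Dusp4 stood at −1.34 and Dusp6 at −1.21 in free-moving mice, and Dusp1 at −1.19 in unloaded mice.

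As deposited, the counts of the other 3 lists lay closer to the shares of all genes. Those shares were 60.5% higher and 18.0% lower in late free-moving mice, 38.8% and 8.53% in late unloaded mice, 21.2% and 36.4% in free-moving mice in noise, and 6.75% and 45.6% in unloaded mice in noise. Of 11 tested partners and relatives of AP-1, 7 were higher and 1 (Batf3) lower in late free-moving mice (median 0.47), with Atf2, whose protein pairs with Jun, at 1.24 and Atf7 at 1.01. In late unloaded mice 3 were higher and 0 lower (median 0.16), in free-moving mice in noise 0 and 3 (median −0.15), and in unloaded mice in noise 1 (Batf3) and 5 (median −0.31). These 4 counts were 4 and 1, 2 and 1, 0 and 2, and 1 and 2 under quantile normalization. The mitochondrial covariate left 2 and 1, 0 and 0, 2 and 2, and 0 and 0. Of all genes the covariate left 2175 and 4023, 844 and 1502, 5180 and 1538, and 0 and 0. In unloaded mice in noise 1 was lower without number 9, 13 or 17. Of all genes 2319 were lower there without number 9, 966 without number 13 and 3092 without number 17.

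Of 14 tested regulators of Fos transcription, 9 were higher and 1 lower in late free-moving mice (median 0.57, with 60.5% of all genes higher). In late unloaded mice 7 were higher and 0 lower (median 0.28, with 38.8% of all genes higher). The counts in noise were 1 higher and 5 lower in free-moving mice, with 36.4% of all genes lower. They were 0 and 8 in unloaded mice, with 45.6% of all genes lower. Srf (1.21) and Ep300 (1.55), a CREB coactivator, led in late free-moving mice, whereas Crtc2, another CREB coactivator, was lower (−0.58) and in noise higher (0.79). Quantile normalization gave 6 and 4, 4 and 1, 2 and 5, and 1 and 4 as the 4 counts. Those with the mitochondrial covariate were 3 and 3, 2 and 0, 5 and 1, and 0 and 0. Over all genes the covariate gave 2175 and 4023, 844 and 1502, 5180 and 1538, and 0 and 0. The balance in free-moving mice in noise turned round in this list, as it did over all genes (2897 higher and 4983 lower as deposited). Without number 1, 4 were higher in late unloaded mice, with 3625 of all genes higher. In unloaded mice in noise 2 were lower without number 9, 0 without number 13 and 3 without number 17. Of all genes 2319, 966 and 3092 were lower there, in the same order.

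Of 17 tested kinases of the MAP kinase and RSK pathways, 12 were higher and 3 lower in late free-moving mice (median 0.76). Of all genes 60.5% were higher and 18.0% lower there. In late unloaded mice 10 were higher and 1 (Mapk11) lower (median 0.37, with 38.8% of all genes higher). In noise 3 were higher and 9 lower in free-moving mice, with 21.2% of all genes higher and 36.4% lower. The counts in unloaded mice were 0 and 12, with 45.6% of all genes lower. Mapk9, the JNK2 gene, was higher in late free-moving mice (1.37). The 3 that ran against the rest there and in free-moving mice in noise were Mapk11 (−0.86 in late, 0.99 in noise), Mapk12 (−0.77 in late, 0.76 in noise) and Map2k2 (−0.51 in late, 0.59 in noise), the directions of Jund. Quantile normalization changed the 4 counts to 11 and 5, 9 and 2, 4 and 9, and 4 and 8. The mitochondrial covariate changed them to 4 and 4, 3 and 2, 6 and 2, and 0 and 0. Over all genes the covariate gave 2175 and 4023, 844 and 1502, 5180 and 1538, and 0 and 0. The balance in free-moving mice in noise thus turned round both in this list and over all genes. In unloaded mice in noise 4 were lower without number 9, 1 without number 13 and 6 without number 17. Of all genes there, 6238 were lower as deposited, 2319 without number 9, 966 without number 13 and 3092 without number 17.

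Markers of tissue and cell type moved with the same comparisons. In late against early free-moving mice 60.5% of all genes were higher and 18.0% lower (limma, adjusted p under 0.05). There 6 of 6 neuron markers were higher. Of 6 thalamus markers 5 were higher and 1 lower, and of 5 astrocyte markers 4 were higher and 1 lower. Of 8 microglia markers 4 were higher and 2 lower, and of 5 endothelium markers 2 were higher and 3 lower. Of 10 hypothalamus markers 5 were lower and 3 higher, and 6 of 7 blood markers were lower. In late against early unloaded mice 38.8% of all genes were higher and 8.53% lower. There 4 of 6 neuron markers and 4 of 6 thalamus markers (median 0.78) were higher, and 5 of 10 hypothalamus markers were lower and 1 higher. In noise against quiet 21.2% of all genes were higher and 36.4% lower in free-moving mice, and 6.75% and 45.6% in unloaded mice. Of 6 neuron markers 0 were higher and 5 lower in free-moving mice, and 0 and 6 in unloaded mice. Of 10 hypothalamus markers 6 were higher and 1 lower in free-moving mice, and 4 and 1 in unloaded mice. Of 7 blood markers 5 were higher and 0 lower in free-moving mice, and 2 and 0 in unloaded mice. Of 5 astrocyte markers 1 was higher and 4 lower, and 1 and 3. Of 8 microglia markers 2 were higher and 4 lower, and 2 and 2. Of 5 endothelium markers 3 were higher and 1 lower, and 0 and 2. Of the 6 thalamus markers, 4 were lower and 1 higher in free-moving mice in noise (median −0.99), and 5 lower and 0 higher in unloaded mice in noise (median −0.86). Their summed level nevertheless overlapped between series, at 227 to 289.5 RPKM in late unloaded and 180 to 289.5 RPKM in late free-moving libraries in quiet and 186.5 to 295 RPKM in the other series. The summed anterior pituitary markers reached 12140 RPKM in early unloaded series a, where their median was 5.00 RPKM. Choroid plexus markers reached 280 RPKM in late unloaded and 390 RPKM in late free-moving mice in quiet, with medians of 17.7 and 14.2 RPKM. In bulk tissue, fewer cells of a type and less RNA per cell cannot be told apart, and the part of tissue makeup in the AP-1 differences was not tested.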

How the data were processed

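The values are the deposited RPKM for 21558 genes in 48 columns, 1 per pool of 3 mice, as the authors deposited them. Per the submitters' processing notes the authors used CASAVA 1.8 and HISAT; for the HISAT version, genome build, annotation and use of strand, the sources used here say nothing. Depth is not stated either, and was estimated from the steps between low RPKM values with gene lengths of GENCODE M21 for 21164 genes: 62.8% to 68.4% of values up to 12 reads came out whole within 0.02 reads, too few for a count test. Intervals from reads would cover counting error only. 0 columns were left out.

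Differences were fitted with limma 3.58.1 in R 4.3.3 on log2(RPKM + 0.5), for the 13685 genes with a mean of at least 0.5 RPKM, all 48 libraries in 1 fit with terms for 8 series and 6 title numbers (residual degrees of freedom: 35) and a variance trend with intensity. Adjusted p-values are Benjamini-Hochberg over all 13685 genes, two-sided, called under 0.05. A fold on this scale understates changes of low genes such as Fosb. For early unloading the mean of series a and b was taken on each side, and a late series is set against the mean of both early series of its kind. The members and lists were chosen with earlier results of these data known. Members are named whatever their p, list genes by smallest adjusted p (up to 4 a list and comparison). Npas4, Batf3, Crtc2, Mapk11, Mapk12 and Map2k2 were named beyond that rule in some comparisons, after their values were seen, because they ran against their list. Of 16 listed regulators of Fos 14 are in the table. Promoters are from RefSeq on GRCm38.p6, matched by symbol for all 6 members; positions are matched by symbol to GENCODE M21.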

Additional observations from a re-analysis of the deposited data

Results flagged for a closer look

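In 6 of the 48 groups (6 genes in 8 series) 1 library stood far from the other 5 by Dixon's test. The test flags about 5% of groups if values are normally distributed. These groups are RPKM of correlated genes in shared libraries, so that rate need not hold and an excess is not shown. Fos at number 21 of early unloaded series b was 8.23 RPKM, and at number 13 of early free-moving series b 9.20 RPKM while the other libraries reached at most 4.08 RPKM in the first series and 4.815 RPKM in the second. In the first of these libraries Jund was also apart, at 131 RPKM the lowest of its series. Jund at number 1 of early free-moving series a, 295 RPKM, was the highest value of all 48 libraries. Jun at number 5 of late free-moving mice in noise was 23.1 RPKM. Junb at number 9 of late unloaded mice in quiet was 12.7 RPKM, the low point of the dip that Fos, Fosb and Fosl2 show in the same library.

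The difference of late against early mice depended on unloading for 3 members, by the interaction in limma. It was −0.67 for Fosl2 and −0.61 for Jun, whose rise was smaller in unloaded mice, and 0.55 for Jund, whose fall was smaller there. The mitochondrial share of these libraries moved with the groups (12.7% to 16.6% in late unloaded and 8.95% to 13.5% in late free-moving mice in quiet). With that share as a covariate only Jund kept its call, and 1771 of all genes were called.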

How the results depend on the processing

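Over 56 member differences and 13 alternatives each (728 values), 684 kept direction and side of the threshold, 32 lost a call, 12 gained one and 0 reversed. The 56 differences of list genes gave 728 values, of which 40 lost a call, 2 gained one and 0 reversed.

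Counts of members called that changed by over 1.5 times were as follows. With the mitochondrial share as a covariate they were 0 in early unloading, 2 in late unloading in quiet, 1 in noise in free-moving mice, 0 in noise in unloaded mice, 1 in the interaction of unloading and noise and 1 in that of unloading and period. Of all 13685 genes that covariate called 1, 4055, 6718, 0, 2547 and 1771, in the same order. Late unloading in quiet gave 2 under quantile normalization, 2 after scaling to an equal sum over nuclear genes (an alternative chosen after seeing the data) and 5 in a fit of the series compared only, where the interaction of unloading and noise gave 1. Of all 13685 genes these 3 alternatives called 3920, 2849 and 7106 for late unloading in quiet, against 1745 as deposited. For the interaction of unloading and noise the fit of the series compared only called 1487, against 600 as deposited. Leaving out 1 title number at a time gave 0 to 2 in early unloading, 0 to 1 in late unloading in quiet, 1 to 3 in unloading by period and 0 to 1 in series b against a in unloaded mice (Jun, without number 1). The 24-hour wave gave 1 (Jun) without early unloaded series a. The cause of these changes was not tested.

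In early unloading the 1 member called was Jun as deposited, Fos under quantile normalization and Jund after scaling to nuclear genes. Of all genes 7227, 2784 and 3706 were called, in the same order. Under the fit without the replicate block (the title number) the counts of members called stayed at 5 and 6 in noise, 6 and 6 in late against early, and 1 in early unloading, and 0 of 56 differences changed side. Of all genes that fit called 7643, 6768, 10658, 6079 and 6687, in the same order. The numbers are not shown to pair pools: libraries of 1 number correlated at a median r of 0.080 over 168 pairs, others at −0.017 over 840. Depth limits Fosb most, with 56 reads in its lowest library, and Fosl1, which could not be tested.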
